A study of Homo sapiens with 9 samples.

Results

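Keratins are described here in LNCaP cells, a long-established human prostate cancer line with an androgen response. The genes are KRT5, KRT7, KRT8, KRT14, KRT15, KRT18, KRT19 and KRT20, 8 of the 19775 genes that a probe set naming a single gene measured. They were taken by name, and they have 12 probe sets in all. Where a gene has several, its main value is that of the probe set whose mean over the 9 arrays is highest. Values are log2 expression values, so a difference of 1 is a change of 2-fold.

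Each of 9 groups had 1 array. In the inhibitor series, cells were grown in 10% fetal bovine serum (steady state) or deprived of androgen in 5% charcoal-stripped serum for 48 h (vehicle). Other deprived cells of that series received 100 nM of the androgen dihydrotestosterone (DHT) for 16 h, either alone or after 2 h with 100 µM etoposide or 100 µM merbarone. Both compounds inhibit topoisomerase II: etoposide holds the enzyme on broken DNA, while merbarone stops it from cutting. Cells of the shRNA series carried a transfected vector that made green fluorescent protein together with either a control shRNA (sh-control) or an shRNA against TOP2B (sh-TOP2B). With 48 h of androgen deprivation in 5% serum, these cells had vehicle or 100 nM DHT for 16 h, and the fluorescent ones were then sorted out. All 4 shRNA-series arrays therefore come from transfected and sorted cells, and all 5 inhibitor-series arrays from cells that were neither.

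Keratins form the intermediate filaments of epithelial cells, and a filament needs a type I keratin and a type II keratin in equal amounts. KRT8 is the type II and KRT18 the type I keratin of simple and glandular epithelia, and both mark the luminal cells of the prostate. KRT19 and KRT20 are further type I keratins, and KRT20 is best known from the intestine, the surface cells of the bladder lining and Merkel cells. KRT7 is a type II keratin of ducts. KRT5, a type II keratin, and its type I partners KRT14 and KRT15 mark basal cells.

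The type II genes lie on chromosome 12 and the type I genes on chromosome 17, apart from KRT18, which lies beside KRT8 on chromosome 12. In RefSeq (GRCh38.p14) KRT8 spans 52897191 to 52949860 and KRT18 spans 52948855 to 52952906, so the annotated spans overlap at one end. KRT20 spans 40875889 to 40885242 on chromosome 17. Promoter windows from 250 bases before to 50 bases after a start site are shown for KRT20, whose level varied most over the arrays, and for KRT8, its type II partner in simple epithelia. Both are on the minus strand and printed 5′ to 3′ in the direction of the gene, KRT20 from chr17:40885193-40885492 and KRT8 from chr12:52926420-52926719. The capitals mark the letters CATAAA.
KRT20: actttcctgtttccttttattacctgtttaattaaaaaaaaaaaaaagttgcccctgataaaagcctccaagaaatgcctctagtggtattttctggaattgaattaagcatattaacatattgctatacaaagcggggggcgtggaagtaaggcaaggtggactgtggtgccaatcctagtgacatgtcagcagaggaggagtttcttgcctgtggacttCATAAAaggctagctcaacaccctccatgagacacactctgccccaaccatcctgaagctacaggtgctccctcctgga
KRT8: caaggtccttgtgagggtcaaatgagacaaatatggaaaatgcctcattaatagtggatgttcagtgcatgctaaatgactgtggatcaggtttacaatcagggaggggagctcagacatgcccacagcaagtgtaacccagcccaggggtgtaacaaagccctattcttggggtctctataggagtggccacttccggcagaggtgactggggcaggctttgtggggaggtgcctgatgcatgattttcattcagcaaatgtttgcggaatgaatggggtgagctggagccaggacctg
In the KRT20 window CATAAA starts 29 bases before the start site, and 10.6% of the 35116 windows of this length in the table hold these letters on either strand. Neither window holds TATAAA (11.5% of windows), AGAACA, one arm of the androgen receptor's consensus site (14.8%), or the full palindromic androgen response element that repeats this arm inverted after 3 bases (0.0028%). The KRT8 window belongs to a start inside the annotated span of the gene, not to its outermost end.

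A level below the median of its own array, which lay between 5.61 and 5.72, is called dim. KRT8 and KRT18 were above this level on all 9 arrays, with KRT8 between 10.41 and 11.54 and KRT18 between 12.05 and 13.14. The basal keratins were dim nearly throughout. KRT14 ran from 3.61 to 4.88 and KRT15 from 3.59 to 4.69, and both were dim on 9 of 9 arrays. KRT5 ran from 5.18 to 5.68 and was dim on 8, the vehicle array of the inhibitor series being the exception. The luminal marker genes measured beside them included KLK3, which encodes prostate-specific antigen and was dim on 1 array, KLK2, a related protease gene, which was dim on 4, and FOLH1, HOXB13, FOXA1, GATA2, TMPRSS2, ACP3 and SLC45A3, which were dim on none. Of the 8 basal markers measured beside the keratins, CD44 was dim on 9 arrays, NGFR on 8, CDH3 on 2 and TRIM29 on 1, while ITGA6 and ITGB4, which encode laminin receptor subunits, LAMB3 and S100A2 were dim on none. Basal keratins were thus dim where several other basal markers were not.

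**Figure D1:**
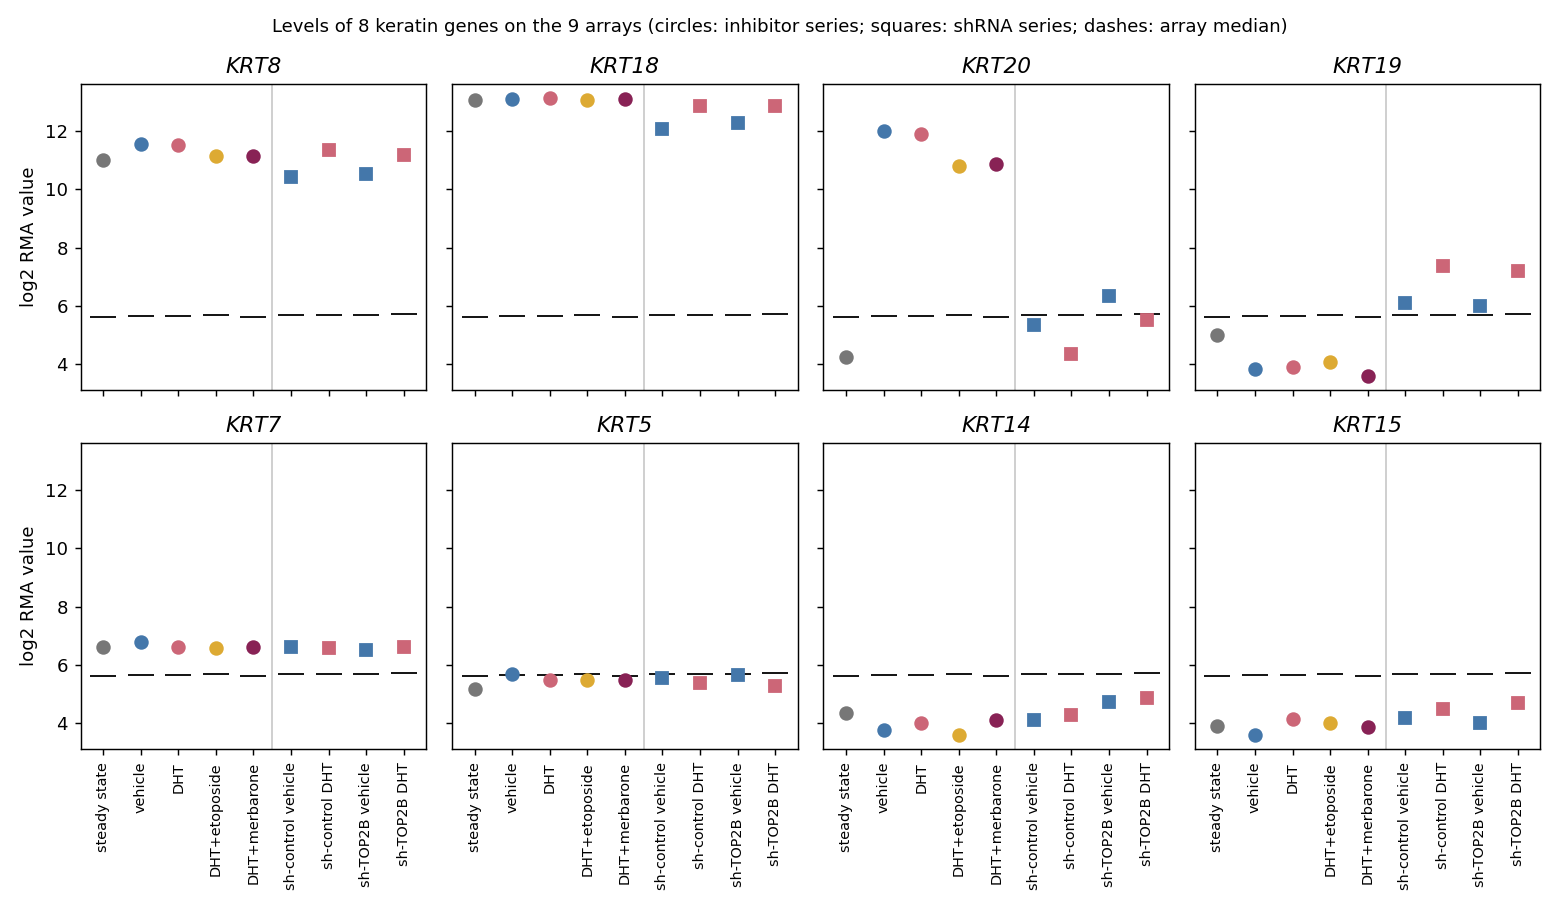
The log2 RMA value of each of the 8 keratin genes (main probe set) on the 9 arrays, circles for the inhibitor series and squares for the shRNA series, with a dash at each array's median. KRT8 and KRT18 lie far above the medians everywhere, KRT20 only on the 4 deprived arrays of the inhibitor series (10.81 to 12.01), and KRT14 and KRT15 below the medians everywhere.

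The 2 series differ in more than treatment. The 3′ minus 5′ difference of the beta-actin control probe sets, a sign of RNA integrity, was 0.38 to 0.70 on the inhibitor-series arrays and 2.38 to 3.09 on the shRNA-series arrays. TOP2B, which the shRNA targets, had values of 10.54 (vehicle) and 10.87 (DHT) with the control vector and 10.09 and 10.01 with the TOP2B vector, a difference of -0.66 ± 0.12 (SE) that did not pass the test (limma adjusted p = 0.0934). Tests used limma over 11865 genes, with an adjusted p of 0.05 as threshold. With 1 array per group, the spread behind most tests is how far the DHT effect differed between 3 pairs of arrays (inhibitor series, sh-control, sh-TOP2B). In tests that compare DHT responses between pairs, and in fits without a pair, it rests on 2 pairs, with 1 residual degree of freedom. KRT7, KRT8, KRT18 and KRT20 passed the filter on dim genes and were tested, 4 of the 8. KRT5, KRT14, KRT15 and KRT19 did not, and p-values given for them come from a fit without the filter over 19775 genes. Some alternatives centre each array on the median level of 11 control genes. That median was the level of B2M in steady state (12.99), ACTB with vehicle in the inhibitor series (13.50) and TUBB with vehicle in sh-control cells (13.09). Centring thus shifts each array by 1 gene, not the same on all, and calls gained or lost with it are no measure of robustness.

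KRT20 separated the arrays into high and low. It stood at 12.01 with vehicle, 11.88 with DHT, 10.88 with merbarone and DHT and 10.81 with etoposide and DHT. In steady-state cells of the same series it was dim, at 4.24. In the shRNA series, where all cells were deprived as well, it was 6.36 and 5.51 (dim) in sh-TOP2B cells with vehicle and DHT, and 5.35 and 4.37 (both dim) in sh-control cells. The 4 deprived inhibitor-series arrays were thus far above all 5 others, of which 4 were dim. In cultures measured as a whole, fewer cells with a transcript and less of it per cell cannot be told apart.

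The comparison of steady state with vehicle asks how the cells differed before and after androgen and serum withdrawal. KRT20 was lower in steady-state cells by 7.77 ± 0.31 on the log2 scale (limma adjusted p = 3.14e-05). Because the steady-state level was dim, the change is given as a bound, at least 6.38 lower or at least 83.3-fold. Of the 4 members tested, KRT20 was the only one called here, against 28.1% of all genes. It was in the test only because it is high on the deprived inhibitor-series arrays. KRT8 (11.00 in steady state, 11.54 with vehicle, adjusted p = 0.238) and KRT18 (13.06 and 13.10, adjusted p = 0.934) did not pass, nor did KRT7 (6.63 and 6.79). With arrays centred on control genes KRT18 turned from -0.05 to 0.46 and passed (adjusted p = 0.0429), and without the inhibitor-series pair in the spread KRT8, at -0.53, passed (0.0032). KRT19 was dim on both arrays (5.02 and 3.83), as were KRT14 and KRT15. The serum share, the charcoal treatment and the androgen differ together between these arrays and cannot be told apart.

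DHT did not restore the steady-state level of KRT20 in the inhibitor series. Against the DHT array, steady-state cells were at least 6.26 lower (deposited difference -7.64 ± 0.31, limma adjusted p = 3.71e-05), in a comparison that called 24.8% of genes. KRT8 (-0.51 ± 0.30) and KRT18 (-0.08 ± 0.23) did not pass, although KRT8 did without the inhibitor-series pair in the spread (0.0047). The same steady-state array serves in this comparison and the last.

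Some other filament and junction genes differed between steady state and vehicle too. VIM, the mesenchymal intermediate filament gene vimentin, was 6.77 in steady state and 8.46 with vehicle and was lower in steady state by 1.69 ± 0.19 (limma adjusted p = 0.00136). The lamin gene LMNB1 was higher in steady state by at least 3.73, dim with vehicle, and LMNB2 by 1.70. The list of desmosome and plakin genes includes genes whose products anchor keratin filaments at junctions, but not all of them do. Of its 13 tested genes 3 were lower and 0 higher, near the 28.1% called over all genes. The median difference was 0 against 0.04 over all genes. The 3 lower genes were DSP (-0.83 ± 0.21), which encodes desmoplakin, JUP (-0.74 ± 0.15), which encodes plakoglobin, and the crosslinker MACF1 (-0.53 ± 0.12). With arrays centred on control genes none of these 3 passed, and DSP and MACF1 also missed the threshold without the sh-TOP2B pair (adjusted p = 0.0535 and 0.0707) or without the intensity trend (0.0884 and 0.0671). LAMB3, a laminin chain gene of basal cells, was lower by 2.93 ± 0.22 (adjusted p = 3.20e-04), and DNAJB6, a chaperone that binds KRT18, by 0.84 ± 0.22.

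Both topoisomerase II inhibitors gave lower KRT20 values than DHT alone, and neither difference passed the test. With etoposide KRT20 was at 10.81 against 11.88, a difference of -1.07 ± 0.31 (limma adjusted p = 0.199), when 1.05% of genes were called. With merbarone it was at 10.88, a difference of -1.0 ± 0.31 (limma adjusted p = 0.0510), when 31.7% of genes were called. Without the inhibitor-series pair in the estimate of spread both differences passed (adjusted p = 0.00670 and 0.00156), and with arrays centred on control genes they were -1.21 and -1.27 and passed as well. KRT8 with merbarone, at -0.37 ± 0.30 (adjusted p = 0.407), also passed under both (0.0216 without that pair, and -0.64 with 0.0326 after centring). For KRT20 the spread without that pair comes from the shRNA-series pairs, where the gene was mostly dim, so its passes there are no support. KRT20 remained far above its steady-state level with either compound. Of the 13 desmosome and plakin genes 1 was higher and 5 were lower with merbarone, with a median of -0.36 against 0 over all genes, among them JUP (-0.69 ± 0.15) and MACF1 (-0.67 ± 0.12). With the median over probe sets MACF1 was at -0.24 and did not pass (adjusted p = 0.540).

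The inhibitors, matched in dose and in hours of treatment, gave KRT20 values that differed by -0.06, etoposide minus merbarone, with a 95% interval from -0.81 to 0.69. This comparison, the only pair of compounds in the study, called 32.6% of genes and 0 of the 4 members tested. For KRT18 the difference was -0.03 (interval -0.57 to 0.52) and for KRT7 -0.04. KRT8 had exactly the same deposited value with both compounds, 11.14, against 11.51 with DHT alone (-0.37 ± 0.30). Exactly equal values were seen for 4.61% of all probe sets on these arrays. With arrays centred on control genes the differences of KRT20, KRT18 and KRT7 changed sign, to 0.06, 0.10 and 0.08, and that of KRT8 went from 0 to 0.12; none passed.

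One other probe set of KRT7 behaved differently from the main one. The main probe set ranged only from 6.53 to 6.79 over the 9 arrays. The second reached 6.88 with merbarone against 5.78 with DHT alone and 6.18 with etoposide, and was at most 6.06 on the other 6 arrays. The remaining 2 KRT7 probe sets were dim on all 9 arrays. The probe sets of KRT7 therefore disagree on whether merbarone differs from DHT alone, and no direction is given for the gene.

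**Figure D2:**
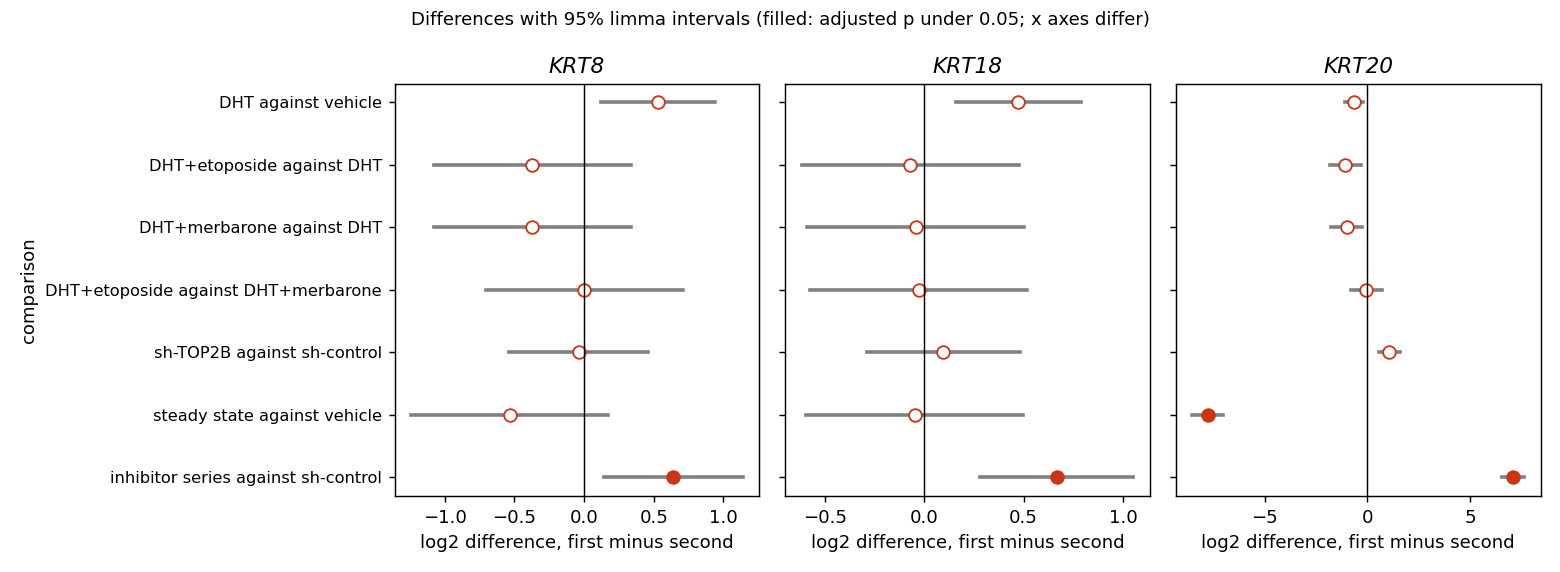
Log2 differences of KRT8, KRT18 and KRT20 in 7 comparisons, first group minus second, with 95% limma intervals; filled points passed an adjusted p of 0.05, and the x axes differ between genes. KRT20 is set apart by -7.77 in steady state against vehicle and 7.09 in inhibitor series against sh-control.

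DHT was compared with vehicle in 3 pairs of arrays, and the keratin differences were unlike in the 2 series. In the sh-control pair KRT8 was 10.41 with vehicle and 11.36 with DHT, and in the sh-TOP2B pair 10.51 and 11.18. In the inhibitor series it was 11.54 and 11.51. KRT18 followed the same order, going from 12.05 to 12.86 in the sh-control pair, from 12.26 to 12.84 in the sh-TOP2B pair, and from 13.10 to 13.14 in the inhibitor series. Both shRNA-series vehicle arrays were thus the lowest of the 9 for KRT8 and KRT18, and the DHT arrays of that series lay nearer the inhibitor-series values.

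Over the 3 pairs KRT8 was higher with DHT by 0.53 ± 0.17 (limma adjusted p = 0.181) and KRT18 by 0.47 ± 0.13 (adjusted p = 0.147), and neither passed. KRT20 was at -0.65 ± 0.18 (adjusted p = 0.147) and KRT7 at -0.05 ± 0.15. DHT called 0.447% of genes and 0 of the 4 members tested, of which 3 had an unadjusted p below 0.05 (0.0181 for KRT8, 0.00956 for KRT18 and 0.00969 for KRT20). Over all genes, 2288 of 11865 had an unadjusted limma p below 0.05. Without the filter on dim genes the members did not pass either. With arrays centred on control genes KRT8 (0.48), KRT18 (0.42) and KRT20 (-0.71) all passed (limma adjusted p = 0.0218, 0.0134 and 0.0219). In the sh-control pair that centring sets TUBB (13.09, vehicle) against B2M (13.19, DHT), so these passes are no support. The calls also turned on the inhibitor-series pair, and without that pair the spread is how alike the 2 shRNA-series pairs are. Without it, in the 2 shRNA-series pairs alone, KRT8 rose by 0.81 ± 0.08 (limma adjusted p = 4.39e-05) or 1.75-fold, and KRT18 rose by 0.69 ± 0.06 (adjusted p = 1.32e-05) or 1.62-fold. For KRT20 the deposited difference there was -0.91 ± 0.14, but 3 of the 4 levels were dim, both of sh-control cells included, and the gene was tested only because it is high in the inhibitor series, so no size is given. Over all 3 pairs it was at least 0.26 lower with dim levels raised to the median. These pairs alone called 20.1% of all genes, 8.87% higher and 11.2% lower.

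KRT19 was measured above the array median in the shRNA series only. In sh-control cells it stood at 6.11 with vehicle and 7.38 with DHT, and the sh-TOP2B cells gave 6.0 and 7.2. On the 5 inhibitor-series arrays it was dim, between 3.61 and 5.02. Its DHT differences were 1.27 and 1.20 in the shRNA-series pairs, and over all 3 pairs 0.85 ± 0.26 (limma without the filter, adjusted p = 0.245). The second KRT19 probe set was dim on all 9 arrays, going from 4.81 to 5.35 with DHT in the sh-control pair and from 4.78 to 5.46 in the sh-TOP2B pair. In the same pairs 2.11% and 1.74% of the genes tested were higher with DHT by at least 1.

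**Figure D3:**
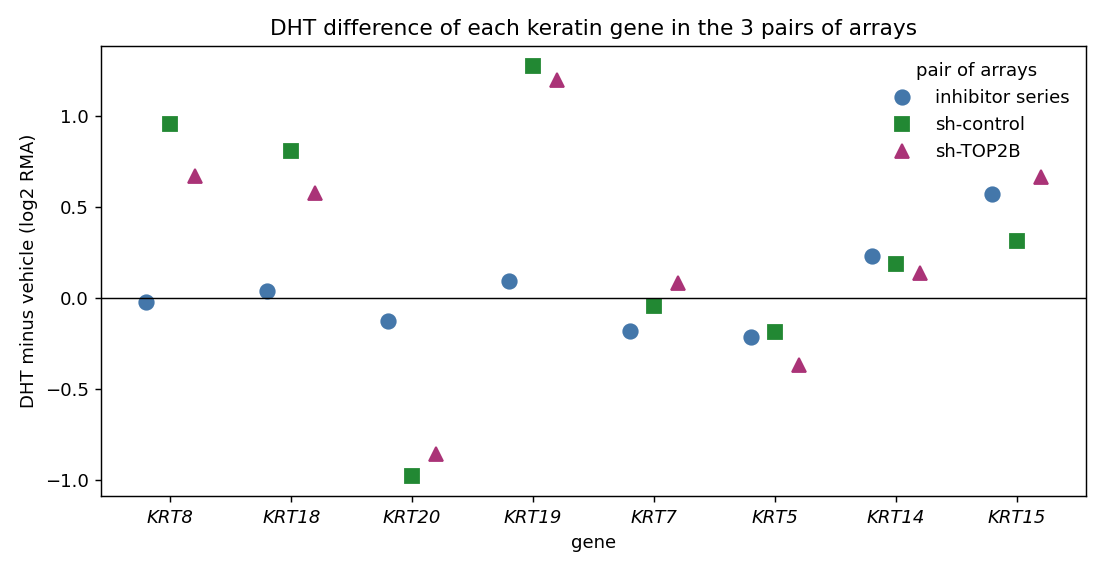
DHT minus vehicle (log2 RMA) of the 8 keratin genes in the pairs of the inhibitor series, of sh-control cells and of sh-TOP2B cells, 1 point per pair. KRT8, KRT18 and KRT19 lie between 0.58 and 1.27 in both shRNA-series pairs and between -0.02 and 0.09 in the inhibitor series, and KRT20 lies at -0.97 and -0.85 against -0.13.

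A test of that difference was added after the levels had been seen. Its spread is only how alike the 2 shRNA-series pairs were, with none for the single inhibitor-series pair. The DHT response of the shRNA-series pairs exceeded that of the inhibitor-series pair by 0.83 ± 0.14 for KRT8 (limma adjusted p = 0.00956) and by 0.66 ± 0.10 for KRT18 (adjusted p = 0.00632). For KRT20 it was -0.79 ± 0.24 (adjusted p = 0.131) and for KRT7 0.20 ± 0.36 (adjusted p = 0.879), so 2 of 4 members were called against 2.98% of all genes. The KRT8 and KRT18 calls did not hold without the filter on dim genes (adjusted p = 0.0578 for both), without the intensity trend (0.347 and 0.381) or with arrays centred on control genes (0.0747 and 0.0838). In the same pairs the beta-actin integrity value moved as well, from 3.09 with vehicle to 2.67 with DHT in sh-control cells and from 2.69 to 2.38 in sh-TOP2B cells, against 0.47 and 0.46 in the inhibitor series. The GAPDH value went from 0.64 to 0.52 in sh-control cells, stayed at 0.52 in sh-TOP2B cells, and was 0.17 and 0.20 in the inhibitor series. The part of RNA integrity in the keratin values was not tested.

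Lowering TOP2B was compared with the control vector over the vehicle and DHT arrays of each. KRT8 differed by -0.04 (95% interval -0.54 to 0.46) and KRT18 by 0.10 (-0.29 to 0.48), or -0.0092 with arrays centred on control genes, and neither passed. KRT20 was higher in sh-TOP2B cells by 1.07 ± 0.22 (limma adjusted p = 0.157), from levels that were dim on 3 of the 4 arrays, or by at least 0.34 with dim levels raised to the median. It passed without the inhibitor-series pair and, at 0.97, with arrays centred on control genes. KRT20 was in the test only because it is high in the inhibitor series, so these passes are no support. This comparison called 1.05% of genes and 0 of the 4 members tested. The dim keratin KRT14 stood at 4.75 and 4.88 in sh-TOP2B cells against 4.11 and 4.29 in sh-control cells, and KRT19 at 6.0 and 7.2 against 6.11 and 7.38.

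The DHT response in sh-TOP2B cells was set against that of the other pairs in a second fit. It differed by 0.20 ± 0.38 for KRT8, by 0.16 ± 0.29 for KRT18 and by -0.30 ± 0.41 for KRT20 (limma adjusted p = 1.00 for each). The test called 0 genes in all (0%), with 205 at an unadjusted p below 0.05. The KRT8 interval ran from -0.73 to 1.14. For the knockdown, which called 1.05% of all genes, 1 of 8 keratin-binding and keratin-cleaving proteins was higher. This was SFN, which encodes the 14-3-3 sigma protein, higher by 1.17 ± 0.18 (limma adjusted p = 0.0374). It was 9.34 and 8.87 in sh-TOP2B cells against 7.87 and 8.0 in sh-control cells. Among 8 tested genes of other intermediate filaments SYNM, the gene of synemin, was higher by 0.71 ± 0.11 (adjusted p = 0.0445). Neither SFN nor SYNM passed without the filter on dim genes or without the intensity trend.

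Untransfected cells of the inhibitor series were compared with sorted sh-control cells over the vehicle and DHT arrays of each. KRT20 was higher in the inhibitor series by 7.09 ± 0.22 (limma adjusted p = 3.75e-06), at least 6.25 with the dim sh-control levels raised to the median. KRT8 was higher by 0.64 ± 0.21 (adjusted p = 0.0306) and KRT18 by 0.67 ± 0.16 (adjusted p = 0.00911). In all 3 of 4 members tested were higher, against 26.6% of genes higher and 68.3% called in either direction. KRT20 was in the test only because it is high in the inhibitor series, and KRT19, dim there, was left out. The count of members is therefore no result about the keratins. The KRT8 call did not hold without the intensity trend (adjusted p = 0.0747) or with centring on control genes (0.0756). For KRT8 and KRT18 most of the difference lay between the vehicle arrays, as the values by pair above show.

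KRT19 went the other way. It was dim on both inhibitor-series arrays (3.83 and 3.93) and lower than in sh-control cells by at least 1.09 (deposited difference -2.86 ± 0.32, limma without the filter, adjusted p = 4.04e-04, when 52.5% of genes were called). Transfection, sorting, RNA integrity and series differ together between these arrays and cannot be told apart.

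Junction genes were called in both directions between the series, at about the share of all genes (68.3%). Of the 13 desmosome and plakin genes tested 5 were higher and 5 lower in the inhibitor series, with a median of -0.10 against -0.18 over all genes. DSP was higher by 1.91 ± 0.15, PKP3, a plakophilin gene, by 1.57 ± 0.13 and JUP by 1.24 ± 0.11. LMNB1, dim on the vehicle array of the inhibitor series, was lower by at least 4.57, and SYNM stood at -1.99 ± 0.11, inhibitor series minus sh-control. Of 8 keratin-binding and keratin-cleaving proteins 2 were higher and 4 lower, again near that share, with DNAJB6 lower by 2.26 ± 0.16 and TCHP, the gene of the keratin-binding protein trichoplein, higher by 1.06 ± 0.16.

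Of the 47 other keratin genes listed 36 were measured and only KRT10 and KRT78 passed the filter on dim genes. KRT10, a type I keratin known from the upper layers of skin, was above the median on all 9 arrays, between 10.46 and 12.10. It was highest with merbarone, at 12.10 against 11.46 with DHT alone, and rose by 0.64 ± 0.14 (limma adjusted p = 0.0166). It was also higher in the inhibitor series than in sh-control cells by 0.90 ± 0.10. The merbarone call did not hold without the intensity trend (adjusted p = 0.0643) or with centring on control genes (0.184).

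In the fit without the filter 2 of the 36 other keratins were higher and 0 lower with merbarone, against 16.1% of genes called. The second was KRT75, a type II keratin of the hair follicle, chosen for description after its values were seen. It was 9.04 with merbarone, 6.13 with etoposide and dim on the other 7 arrays (3.87 to 4.94). It was higher with merbarone than with DHT alone by at least 3.39 (deposited difference 4.31 ± 0.34, limma without the filter, adjusted p = 9.06e-04), and lower with etoposide than with merbarone by 2.91 ± 0.34 (adjusted p = 0.00334). It was the only one of the 36 called between the inhibitors in that fit, which called 16.5% of genes.

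KRT16, a type I keratin that appears in stressed skin, was chosen for description in the same way. It stood at 7.29 with vehicle and 7.86 with DHT in sh-TOP2B cells and was dim on the other 7 arrays (4.71 to 5.19). Its difference between sh-TOP2B and sh-control cells was at least 1.88 (deposited difference 2.42 ± 0.21, limma without the filter, adjusted p = 0.00446). It was the only one of the 36 called in that comparison, which called 0.769% of genes. Between the inhibitor series and sh-control cells 12 of the 36 were higher and 2 lower, against 52.5% of genes called. One of those lower was KRT3, a type II keratin of the cornea, also chosen after its values were seen. It was above the median on the 4 shRNA-series arrays (6.34 to 6.8) and dim on the 5 others. Its difference, inhibitor series minus sh-control, was -1.67 ± 0.20 (adjusted p = 6.09e-04, without the filter), or at least 0.96 lower. Keratin genes share long stretches of similar sequence. How far the signal of any keratin here comes from close relatives was not tested. This holds for KRT16, KRT75 and KRT10, and for KRT8 and KRT18, which have 1 probe set each.

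**Figure D4:**
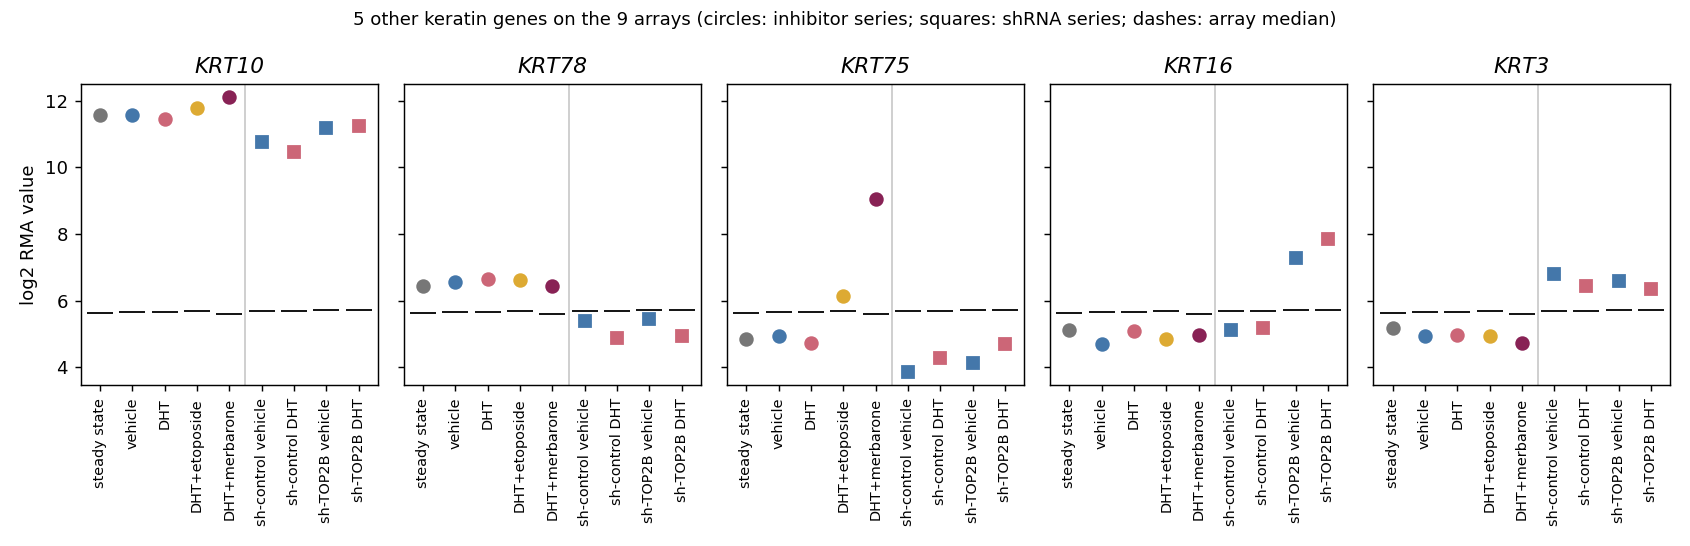
Log2 RMA values of KRT10, KRT78, KRT75, KRT16 and KRT3 on the 9 arrays, circles for the inhibitor series and squares for the shRNA series, with a dash at each array's median. KRT75 is high with merbarone (9.04), and KRT16 is above the median on the 2 sh-TOP2B arrays (7.29 and 7.86) and on no other.

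The genes nearest to each member were found by Pearson correlation over the 9 arrays after the mean of each series was subtracted. These correlations describe shared patterns on shared arrays and carry no test. KRT20 was nearest to PIGR (r = 0.998), the receptor that carries antibodies across epithelia, CD24 (0.998), a surface glycoprotein gene, IL2RG (0.995), a cytokine receptor chain gene, SLC44A4 (0.994), a transporter gene, and VIM (0.993). All 5 were lowest in steady state, as with PIGR at 4.29 there and 10.89 with vehicle. KRT20 was 4.24 there and at least 10.81 on the other inhibitor-series arrays, so these r values rest largely on the steady-state array. Without the centring 4 of the 5 were less like KRT20. PIGR stayed between 9.72 and 11.17 on the shRNA-series arrays, where KRT20 lay between 4.37 and 6.36, and its correlation without centring was 0.428. It was 0.625 for CD24, 0.685 for VIM and 0.743 for IL2RG, while SLC44A4 kept 0.993, being lower on the shRNA-series arrays (10.17 to 10.78) than on the deprived inhibitor-series arrays (11.88 to 12.54), as KRT20 was.

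**Figure D5:**
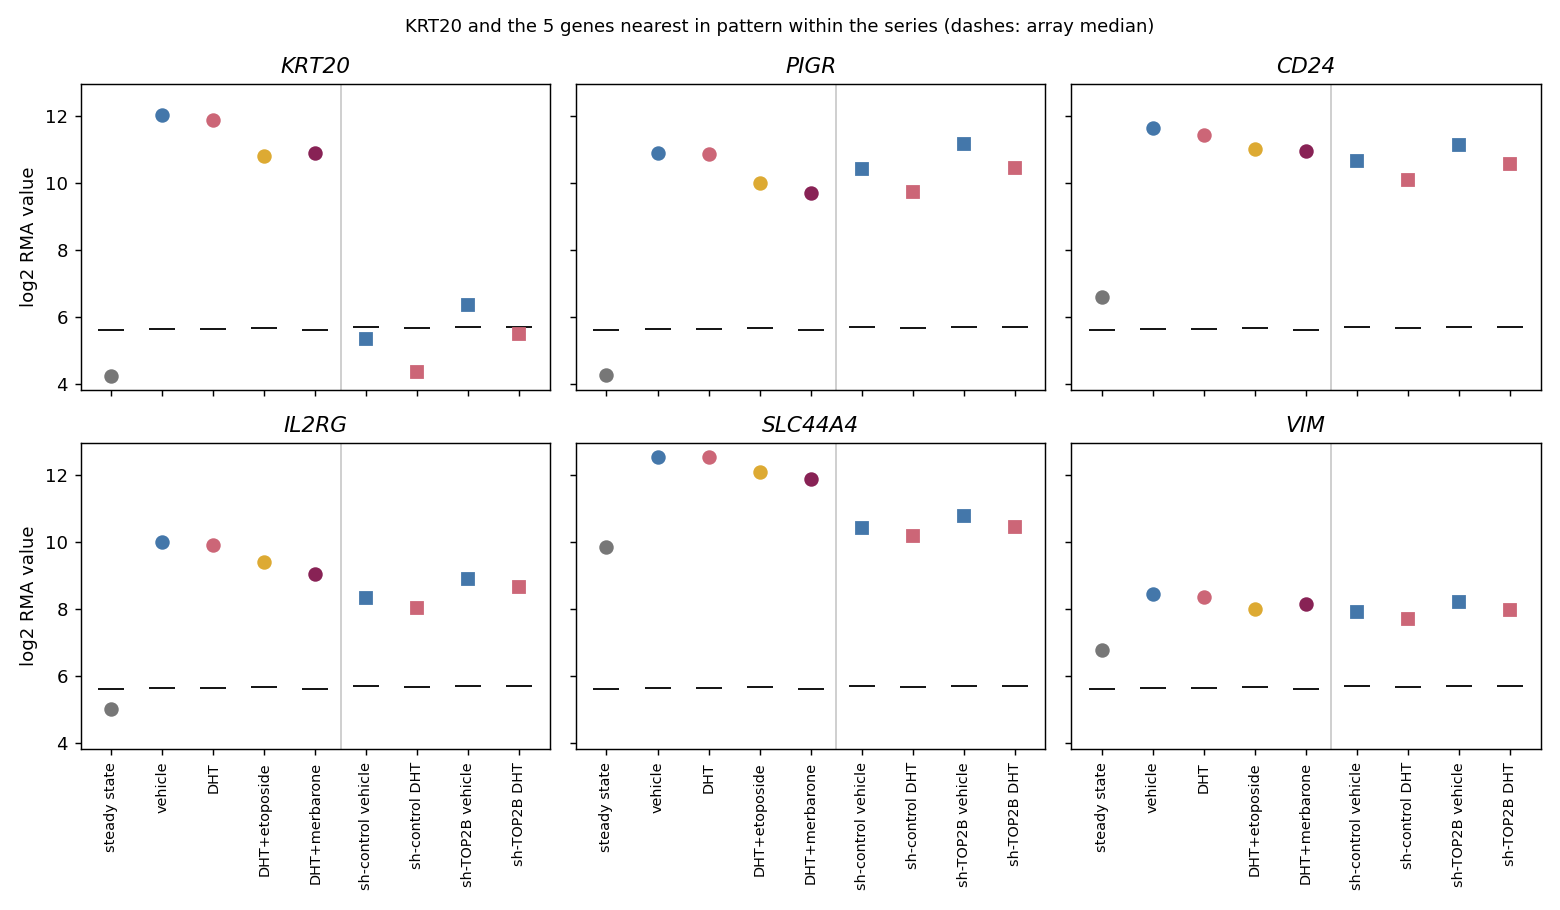
Log2 RMA values of KRT20 and the 5 genes nearest to it in pattern within the series on the 9 arrays, with a dash at each array's median. All 6 genes are lowest in steady state within the inhibitor series, but only KRT20 is near or below the median on the 4 shRNA-series arrays.

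KRT8 and KRT18 correlated with each other at 0.883 over the 9 arrays, both with and without the series means. KRT8 was nearest to HSPA5 (r = 0.994), an endoplasmic reticulum chaperone gene, CSGALNACT1 (0.980), PLEKHG3 (0.953), VCL (0.952), the gene of the adhesion protein vinculin, and COL12A1 (0.947). KRT18 was nearest to FGD4 (0.979), LIFR (0.974), a cytokine receptor gene, GOLGA2 (0.973), KYAT1 (0.969) and NBL1 (0.968). Within the shRNA series CSGALNACT1 went from 6.55 with vehicle to 10.44 with DHT in sh-control cells, and LIFR from 9.0 to 11.57. Without the centring the correlations were 0.491 for CSGALNACT1 with KRT8, and -0.08 for LIFR and -0.14 for FGD4 with KRT18. With the series means subtracted, the correlation of KRT20 with KRT8 was 0.240 and with KRT18 -0.05. KRT7 was nearest to SH2B1 (0.921), PSD (0.874), WNT16 (0.870), PARK7 (0.847) and GPR199P (0.844). Only its main probe set was used here, and that set was nearly level, with a range of 0.26 over the arrays. The KRT7 correlations therefore rest on very small differences.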

How the data were processed

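Gene expression was measured on Affymetrix U133 Plus 2.0 arrays, 1 for each of 9 groups. The authors deposited log2 values for 54675 probe sets, made with RMA per the submitters' processing notes, whose version is not given in the sources used here. Of these, 41097 probe sets name 1 gene symbol, 1801 several and 11777 none, and the last 2 kinds were not used. Each gene took its probe set with the highest mean, and genes with a mean under the 40th percentile (5.92) were left out, leaving 11865 of 19775.

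An additive model with the 3 backgrounds (inhibitor series, sh-control, sh-TOP2B) as blocks, DHT, and a term for each of the steady-state, etoposide and merbarone arrays was fitted with limma 3.58.1 (R 4.3.3) with an intensity trend, two-sided, with Benjamini-Hochberg adjustment at 0.05. It has 2 residual degrees of freedom, from the 3 DHT pairs, and the lone arrays were assumed to vary likewise. Nothing in the labels says that pairs are separate cultures, so a p-value may reflect technical spread alone. The fit was tested on simulated data. The number of arrays limits the precision.

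The members and gene lists were chosen with earlier results of these data known. Genes named were the members, from each list at most 3 past the test with the largest difference per comparison, cell type markers, and the 5 nearest genes to each tested member; others are said to be chosen after their values were seen. Alternatives were the median over probe sets, no filter, no trend, centring on the median level of 11 control genes, each pair left out, no block, and the fitted DHT level. Promoter windows came from RefSeq (GRCh38.p14), and of the members only KRT5, KRT8 and KRT20 had a window to search. The KRT5 window, not printed here, holds AGAACA at 32 bases after the start site, both strands searched.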

Additional observations from a re-analysis of the deposited data

Results flagged for a closer look

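The DHT response of 2 members differed between the series in a test of the difference itself. KRT8 responded by 0.83 more on the log2 scale in the shRNA-series pairs than in the inhibitor-series pair, with DHT differences of 0.95 and 0.67 against -0.02. KRT18 responded by 0.66 more, with 0.81 and 0.58 against 0.04. The comparison was chosen after the levels had been seen, and neither call held without the filter on dim genes, without the intensity trend or with centring on control genes.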

How the results depend on the processing

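The KRT20 calls in steady state against vehicle, steady state against DHT and inhibitor series against sh-control held under every alternative run, as did the KRT18 call in the last. Of the values for single genes under alternatives, 428 kept their direction and side of the threshold, 53 lost the call, 16 gained it and 15 changed sign or left a main value of 0.

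DHT called 53 genes, 35 with the median over probe sets, 20 without the filter, 5 without the trend, 679 with centring, and 1 to 2381 with a pair left out (2381 without the inhibitor-series pair, 1 without sh-control, 10 without sh-TOP2B). The fit with no replicate block called 0 (179 at an unadjusted p below 0.05, limma). Members called by DHT went from 0 to 3 with centring and 0 to 3 with a pair left out. Etoposide called 124 genes, 56 without the filter, 0 without the trend (1529 at an unadjusted p below 0.05, limma), 341 with centring, 232 against the fitted DHT level and 0 to 1078 with a pair left out (0 without sh-control, 24 without sh-TOP2B). Its members called went from 0 to 1 with centring and 0 to 1 with a pair left out, and for merbarone from 0 to 2 and 0 to 2.

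Steady state against vehicle called 3337 genes and 5577 with centring, where 2 members were called, as against 1 to 2 with a pair left out. Against DHT it called 2946, 4529 with centring and 1898 to 4449 with a pair left out, with 1 to 2 members. The knockdown called 124, 81 without the trend and 280 without the inhibitor-series pair, with 1 member there and 1 with centring. That member, KRT20, was tested only because it is high in the inhibitor series. The sh-TOP2B interaction called 0 and 6 with centring. The added comparison of series called 353, 148 without the filter and 0 without the trend (1326 at an unadjusted p below 0.05, limma), with 0 members in either and 0 with centring.

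Centring changed the share of calls that were higher from 94.3% to 49.6% for DHT, 48.5% to 24.3% for merbarone, 41.4% to 56.4% between inhibitors, 55.7% to 88.7% for steady state against vehicle, 54.2% to 85.8% against DHT, 39.0% to 22.9% for inhibitor series against sh-control, 50.7% to 16.4% for the added comparison and 0% to 66.7% for the interaction. Its prior degrees of freedom were 28.8 against 4.62. It moved KRT7 with merbarone from 0 to -0.26, and turned KRT7 to 0.084 (between inhibitors), 0.35 (steady state against vehicle), -0.21 (inhibitor series against sh-control) and -0.016 (added comparison). Between inhibitors it moved KRT8 from 0 to 0.12 and turned KRT20 to 0.062 and KRT18 to 0.10. It turned KRT18 to 0.46 and 0.34 in steady state against vehicle and DHT, and -0.0092 in the knockdown. KRT7 for DHT ran from -0.11 to 0.021 with a pair left out, the latter without the inhibitor-series pair, and was -0.067 (merbarone) and -0.051 (steady state) against the fitted DHT level. ITGA6 was 0.34 for inhibitor series against sh-control with the median over probe sets. The cause of these changes was not tested.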

Other observations

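Of 13 stromal, endothelial and leukocyte markers measured 3 passed the filter on dim genes, and of 6 neuroendocrine markers 1 did. Of 10 tested epithelial adhesion genes 1 was higher and 5 were lower in steady state than with vehicle (28.1% of all genes called), 6 were higher and 1 lower in the inhibitor series than in sh-control cells (68.3%), and with merbarone 1 was higher and 4 lower than with DHT alone (31.7%). Of 10 tested epithelial transcription factors 1 was higher and 3 were lower with merbarone (limma, adjusted p of 0.05). The adhesion counts between series and the transcription factor count lie near the share over all genes.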
